A study of Mus musculus with 32 samples.

Results

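Nuclear transport receptors carry proteins and RNAs through nuclear pores, and the small GTPase Ran sets the direction of travel. The genes described here are Kpnb1, Tnpo1, Tnpo2, Tnpo3, Ipo7, Xpo1, Xpot and Ran. They were picked by gene symbol, 8 of 38201 genes in the gene tables, and none was picked by its change in these samples. Their exon bins, the non-overlapping pieces into which annotated exons were cut, number 233 of 354841. The cells were P19, a mouse embryonal carcinoma line, and the RNA was polyadenylated RNA. The knockdown groups had been transfected for 36 h with esiRNAs (pools of short interfering RNAs cut by an enzyme) against SRSF1, SRSF2, SRSF3, SRSF4, SRSF5, SRSF6 or SRSF7, members of the SR protein family of splicing and mRNA export factors. The control cells received an esiRNA against GFP, a sequence foreign to mouse cells, so every group was transfected. Each group gave a cytoplasmic fraction and a whole-cell lysate, in replicates A and B, which makes 32 libraries. The labels do not say whether the letters are separate cultures, and p-values measure the spread between these libraries.

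Importins bind cargo in the cytoplasm and let go of it in the nucleus when Ran carrying GTP binds them. Exportins pick up cargo together with Ran carrying GTP in the nucleus and release it in the cytoplasm once the GTP is hydrolysed. Kpnb1 (importin beta) works mostly with an importin alpha adaptor that reads classical nuclear localization signals. Tnpo1 and Tnpo2 are close relatives that import RNA-binding proteins such as hnRNP A1. Tnpo3 imports SR proteins with phosphorylated arginine-serine domains, the family depleted here. Ipo7 imports ribosomal proteins and, with Kpnb1, linker histone. Xpo1 exports proteins with leucine-rich signals and several kinds of RNA, and Xpot exports tRNA.

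A handful of measurements bear on every value below. The libraries held 26934441 to 48585635 reads. The targeted Srsf gene was lower than in GFP in 14 of 14 comparisons. It stood at 37.3 to 76.4% of GFP in cytoplasmic libraries and 48.1 to 66.3% of GFP in whole-cell ones, so each knockdown was partial. These are averages over A and B, which could differ. With SRSF3 knockdown, whole-cell libraries held 7145 (A) and 4440 (B) scaled reads of Srsf3, against 8695 and 8161 in GFP cells. Cytoplasmic libraries held 5720 and 3215, against 7172 and 6254, so replicate A was the less depleted one in each fraction. Of 7 embryonal carcinoma markers, 6 had a median of at least 100 scaled reads in both fractions, and Dppa5a did not. Their sum was lowest with SRSF3 knockdown, within A and within B, in both fractions. Whole-cell sums there were 50965 (A) and 50662 (B), against 63751 and 66084 in GFP cells. Cytoplasmic sums were 98811 and 113276, against 133646 and 143377. The replicates differed beyond the knockdowns. The summed level of 3 simple-epithelium markers (Krt8, Krt18, Krt19), all above a median of 100, ran between 3309 and 7398 scaled reads in the A libraries of the cytoplasm and between 14104 and 25164 in the B libraries. In whole-cell libraries it was 1995 to 4296 in A and 8526 to 12967 in B. A sum of 3 smooth muscle markers (Tagln, Acta2, Myh11), 2 of them above that median, likewise reached 608 in A and at least 1178 in B in the cytoplasm. None of 5 exocrine pancreas markers reached a median of 100, none was at 0 throughout, and their sum reached 543 in A and 49 in B in the cytoplasm. For the 6 nuclear RNAs, Malat1 among them, sums of 1062 to 3232 stood in the cytoplasm against 23855 to 38308 in the whole cell. Their part in the results below was not tested, and values with the letter as a block are given where they changed a call.

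For Kpnb1 and Ran the deposited isoform estimates compare a short 3′ UTR with a longer one that runs on to a later end. The reference sequence (NCBIM37, the mouse build called mm9) is shown for both genes because AATAAA was found near the end of only 1 form of each, and not of the same form. Each line covers 30 bases, beginning 40 bases before the end of the form and stopping 10 bases short of it. Capitals mark AATAAA, the usual poly(A) signal.
Kpnb1 short form, chr11:97022858-97022887, minus strand: tttaatgttgaacgatctgataaaataacc
Kpnb1 long form, chr11:97021037-97021066, minus strand: tatcttctgAATAAAgtccgctttattttt
Ran short form, chr5:129529002-129529031, plus strand: gtttagaatcagAATAAAgttgtatttcaa
Ran long form, chr5:129530158-129530187, plus strand: ttggaagaacttaaatatatatcatttctg
In Kpnb1 the signal lies at the long end, beginning 31 bases before it. In Ran it lies at the short end, beginning 28 bases before it. Among 1189 such events of all genes, searched on the gene's own strand, AATAAA was in 42.6% of short-end windows and 64.3% of long-end windows. A window without the letters says only that AATAAA is not in those 30 bases. Of the 1189 long ends, 236 met an annotated transcript end exactly, and whether the others are exact was not tested. The window was set after a first one, ending at the end itself, was seen to cut through a signal.

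Levels between genes were compared per length, in the authors' pooled FPKM of the GFP cells. In the cytoplasm the order was Ran at 649.9, Kpnb1 at 254.9, Tnpo3 at 46.4, Tnpo2 at 26.7, Xpot at 19.88, Xpo1 at 16.85, Tnpo1 at 11.08 and Ipo7 at 4.818 FPKM. Whole-cell levels ran from Kpnb1 at 402.4, Ran at 324.8, Xpo1 at 136.3, Tnpo3 at 75.97, Tnpo1 at 71.4, Ipo7 at 68.41 and Xpot at 43.36 to Tnpo2 at 25.81 FPKM. Kpnb1 and Ran thus stood above the other genes in both fractions, while Xpo1 was the sixth in the cytoplasm and the third in the whole cell. These values pool the replicates and have no error, so neighbours that lie close, such as Tnpo1 and Ipo7 in the whole cell, cannot be ordered beyond their spread. Tnpo1 is listed at 0 FPKM for the cytoplasm of SRSF6 knockdown cells, although those libraries hold 4700 and 2619 scaled reads of it, and that entry was not used.

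For Ipo7, Xpo1 and Tnpo1 the gap between fractions was wider than any change between a knockdown and GFP. Values are scaled reads per gene, reads adjusted by the authors to a common depth within each fraction. In GFP cells Ipo7 had 655 (A) and 327 (B) scaled reads in the cytoplasm, against 7004 and 5677 in the whole cell, which is 13.5-fold lower. Xpo1 had 2564 and 2260 in the cytoplasm, against 16179 and 16127 in the whole cell, 6.68-fold lower. Tnpo1 had 2900 and 2094 in the cytoplasm, against 14843 and 13305 in the whole cell, 5.68-fold lower. For these receptors no library of one fraction overlapped the other in any group. The log2 difference, cytoplasm minus whole cell, over 16 pairs of libraries (8 groups, A and B) ran from −4.77 to −2.65 for Ipo7, from −3.92 to −2.30 for Xpo1 and from −3.01 to −1.39 for Tnpo1. Percentiles were taken among 12613 genes that averaged 100 or more scaled reads in the whole cell, with no such minimum in the cytoplasm. In GFP cells Ipo7 lay at percentiles 2.43 and 3.38, Xpo1 at 7.20 and 8.21 and Tnpo1 at 9.55 and 9.73.

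The other receptors lay nearer to the bulk of the genes. Xpot was 1.98-fold and Kpnb1 1.41-fold lower in the cytoplasm of GFP cells, and Tnpo3 differed by −0.73 (A) and −0.97 (B) on the log2 scale. Tnpo2 differed by 0.02 (A) and 0.36 (B) on the log2 scale, unlike its relative Tnpo1 at −2.34 and −2.67. Ran alone was clearly higher in the cytoplasm, at 34485 and 38097 scaled reads against 18281 and 18194 in the whole cell. Its log2 difference was between 0.64 and 1.28 over the 16 pairs, and it lay at percentiles 85.3 and 85.6 in GFP cells. In all, 6 of 8 genes were lower in the cytoplasm in both GFP pairs. The fractions were scaled separately, with a median over all genes between −0.12 and −0.04 per pair of libraries, so these differences are relative to the bulk of genes and no test was made.

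**Figure D1:**
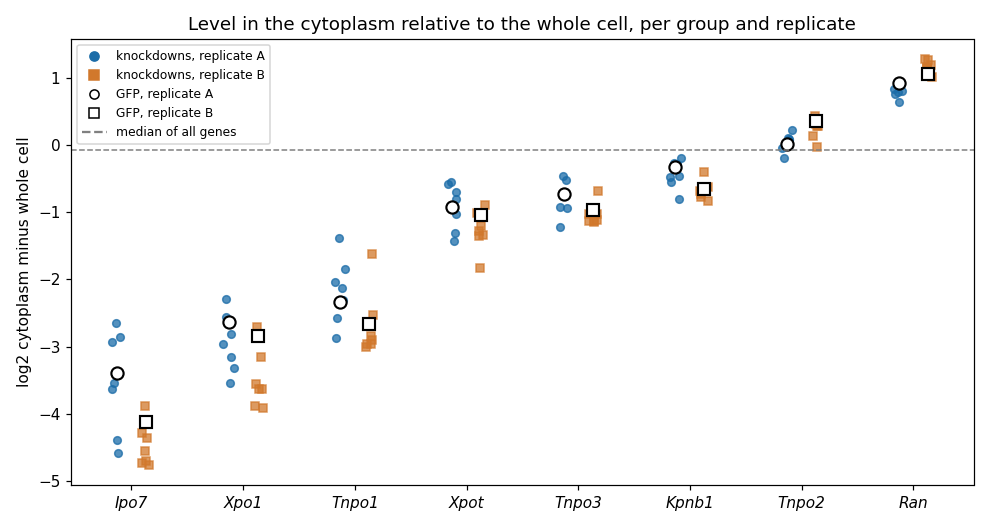
Each point is 1 group and replicate, and the y axis gives the log2 difference in scaled reads, cytoplasm minus whole cell. Filled symbols are knockdowns, open symbols GFP, and the dashed line is the median over all genes. Ipo7, Xpo1 and Tnpo1 lie at −1.39 or lower in all 16 pairs and Ran lies at 0.64 or higher.

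The letters also moved these genes. In the cytoplasm, A was above B in 8 of 8 groups for Kpnb1, Tnpo1, Tnpo3, Ipo7, Xpo1 and Xpot, but in 1 of 8 for Tnpo2 and 3 of 8 for Ran. Ipo7 varied most, with a median log2 difference of 1.4 (range 0.24 to 2.00), A minus B, beside 0.29 in the whole cell. The letters pair the libraries, and a fit with the letter as a block compares A with A and B with B.

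Each knockdown was next compared with GFP within a fraction by limma on log2(scaled reads + 1), with Benjamini-Hochberg adjustment over all genes and a threshold of 0.05. All 8 genes passed the filter on low values in both fractions. Of the targeted Srsf genes, Srsf1 had an adjusted p of 0.023 by limma in whole-cell libraries of the SRSF1 knockdown. No other comparison of a target came below the threshold. Srsf3 with SRSF3 knockdown had an adjusted p of 0.12 (whole cell) and 0.37 (cytoplasm) by limma. The log2 fold changes of low genes are somewhat understated on this scale. In the whole cell the calls among the 8 genes came from the SRSF3 knockdown, and whether it differed from the other knockdowns was not tested. There Tnpo2 rose and Xpot fell, 2 of 8 genes, where 11.4% of all genes were called. The share of all genes called was 0.804% for SRSF1, 0.0216% for SRSF2, 0.0162% for SRSF7 and 0% for SRSF4, SRSF5 and SRSF6. For SRSF3 edgeR and DESeq2 also called 2 of the 8 genes, beside 11.4% and 14.7% of all genes, and both called 0 of the 8 for every other knockdown. At an unadjusted p below 0.05, limma had 2 of 8 genes for SRSF1, 3 for SRSF3, 2 for SRSF7 and 0 for SRSF2, SRSF4, SRSF5 and SRSF6.

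Tnpo2 had 6067 and 5155 scaled reads in the whole cell of SRSF3 knockdown cells, against 4004 and 3653 in GFP cells. Both knockdown libraries lay above all 14 others, since the remaining knockdowns ran from 3704 to 4244. The log2 fold change was 0.54 ± 0.09 (SE), with a mean of 5611 ± 645 scaled reads in SRSF3 knockdown cells and 3828 ± 248 in GFP cells (SD, n = 2 each), and an adjusted p of 0.0073 by limma. Within letters it was 0.60 for A and 0.50 for B. Without SRSF3 replicate A the change was 0.43 with an adjusted p of 0.080 by limma, and fitted on its own 4 libraries it was 0.53 with an adjusted p of 0.10 by limma.

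Xpot, the tRNA exporter, had 5631 and 6411 scaled reads in the whole cell of SRSF3 knockdown cells, against 8222 and 7741 in GFP cells. These were the lowest values of the gene among the 16 whole-cell libraries, the remaining knockdowns lying between 7101 and 9346. The log2 fold change was −0.42 ± 0.10 (SE), with a mean of 6021 ± 551 scaled reads in SRSF3 knockdown cells and 7982 ± 340 in GFP cells (SD, n = 2 each), and an adjusted p of 0.019 by limma. Within letters it was −0.55 for A and −0.27 for B. As for Tnpo2, the larger change lay in A, the replicate in which Srsf3 itself was less depleted. Whether the changes follow the degree of depletion was not tested. The call was lost without SRSF3 replicate A (log2 fold change −0.32, adjusted p of 0.18 by limma), without GFP replicate A (−0.38, 0.11) and without GFP replicate B (−0.47, 0.057).

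Ipo7 did not pass in any knockdown, but both libraries of the SRSF1, SRSF2 and SRSF3 knockdowns lay above both GFP libraries. It had 9555 and 8414 scaled reads with SRSF1 knockdown, 8580 and 7684 with SRSF2 knockdown and 10318 and 7755 with SRSF3 knockdown, against 7004 and 5677 in GFP cells. Its log2 fold changes were 0.51 (adjusted p of 0.23 by limma), 0.37 (0.51) and 0.49 (0.10) for SRSF1, SRSF2 and SRSF3, each ± 0.18 (SE). All comparisons share the same GFP libraries, which were the lowest A and the lowest B of the gene. The log2 fold change of Ipo7 was above 0 in 7 of 7 knockdowns, from 0.11 to 0.51, so the changes are not separate observations. With the letter as a block the adjusted p by limma was 0.00099 for SRSF1, 0.015 for SRSF2 and 0.00038 for SRSF3. Single libraries moved these values. For SRSF3 the change of Ipo7 was 0.30 (adjusted p of 0.59 by limma) without SRSF3 replicate A and 0.68 (0.047) without SRSF3 replicate B, and it was called in 1 of 16 fits that left out a library. For SRSF2 it was 0.21 (0.98) without GFP replicate B.

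Tnpo3, the importer of SR proteins, had 9378 and 8357 scaled reads in the whole cell of SRSF1 knockdown cells, against 7865 and 7186 in GFP cells. Its log2 fold change was 0.24 ± 0.10 (SE), with an adjusted p of 0.32 by limma and 0.044 with the letter as a block. Without SRSF1 replicate A it was 0.15, with an adjusted p of 1.00 by limma. In SRSF3 knockdown cells Tnpo3 had 9140 and 8103, so that both libraries again lay above those of GFP, and this did not pass in either fit. The block fit called 2 of 8 genes for SRSF1 (10.9% of all genes called), 1 for SRSF2 (6.01%) and 3 for SRSF3 (33.2%), and none for SRSF4, SRSF5, SRSF6 and SRSF7. For SRSF3 the 3 genes were Tnpo2, with an adjusted p of 0.00026 by limma, Xpot, with 0.0018, and Ipo7.

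Kpnb1, Tnpo1, Xpo1 and Ran passed in no knockdown in the whole cell. The log2 fold changes of Kpnb1 over the 7 knockdowns ran from 0.04 to 0.15 (SE 0.12), those of Tnpo1 from −0.14 to 0.27 (SE 0.12) and those of Xpo1 from −0.08 to 0.16 (SE 0.14). Ran varied least between groups, from 0.00 to 0.07 (SE 0.17). Kpnb1 had between 34743 and 42248 scaled reads over the 16 libraries and Ran between 16428 and 21511, and A lay above B in all 8 groups for both. Over the 8 genes the median log2 fold change in the whole cell lay between 0.05 for SRSF6 and 0.13 for SRSF7, beside medians over all genes within 0.01 of 0.

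**Figure D2:**
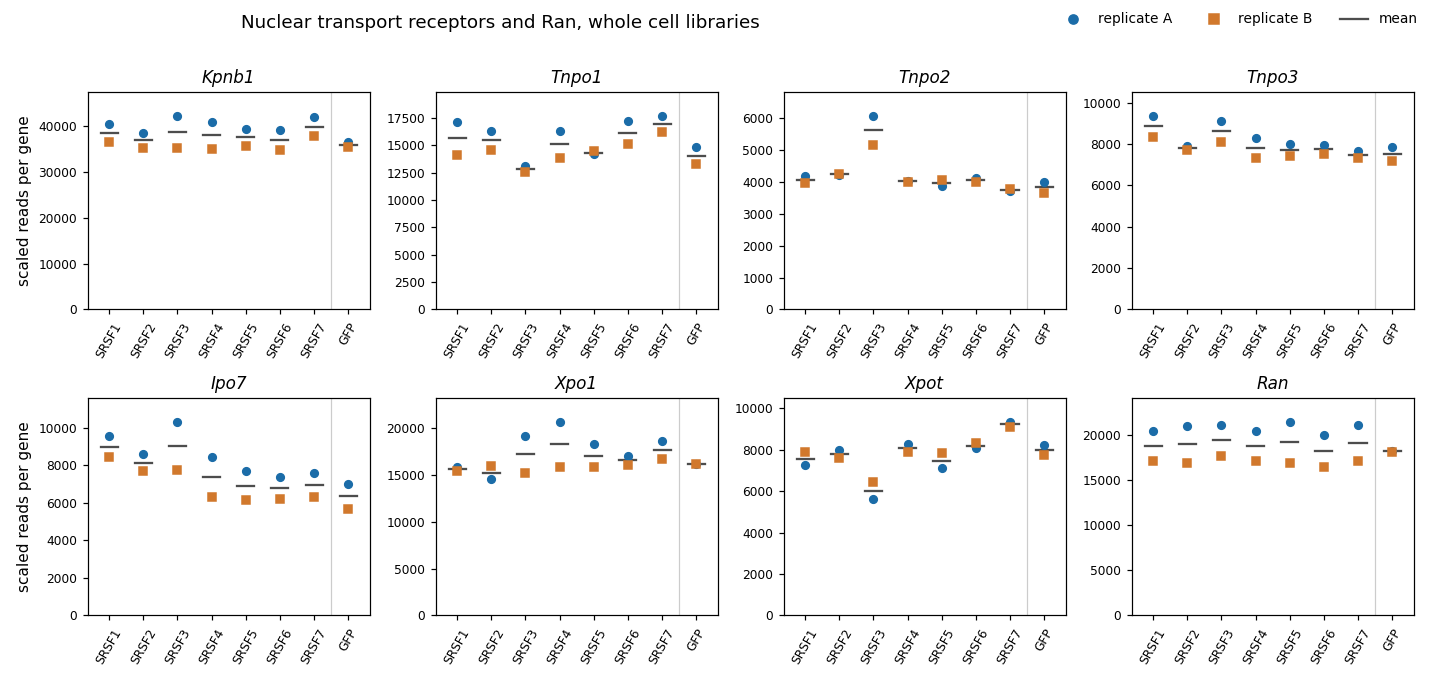
Scaled reads per gene in the whole cell (y axes from 0, a scale for each gene) for the 7 knockdowns and GFP, with circles for A, squares for B and a line for the mean. Tnpo2 stands out upward and Xpot downward in the SRSF3 knockdown, at means of 5611 and 6021.

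In the cytoplasm 0 of the 8 genes passed in any knockdown by limma, edgeR or DESeq2. Of all genes 0.529% were called for SRSF3, 0.0455% for SRSF1 and 0% for each of SRSF2, SRSF4, SRSF5, SRSF6 and SRSF7. At an unadjusted p below 0.05 there was 1 of the 8 genes for SRSF1, 1 for SRSF3 and 0 for each other knockdown. Standard errors in the cytoplasm reached 0.80 for Ipo7, 0.44 for Xpo1 and 0.43 for Tnpo1, the genes with the fewest reads there and among those with the widest gap between letters. With the letter as a block 4 calls were made: 1 of 8 genes for SRSF1 (5.91% of all genes called), 1 for SRSF2 (1.84%) and 2 for SRSF3 (13.9%).

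Tnpo1 had 4967 and 4059 scaled reads in the cytoplasm of SRSF3 knockdown cells, against 2900 and 2094 in GFP cells. These were the highest A and the highest B value of the gene. The log2 fold change was 0.86 ± 0.43 (SE), with an adjusted p of 0.41 by limma and 0.0055 with the letter as a block. Within letters it was 0.78 for A and 0.95 for B. In the whole cell of the same knockdown Tnpo1 was at 13122 and 12586 scaled reads, against 14843 and 13305 in GFP cells. The sum of the 6 nuclear RNAs in the cytoplasm was 3232 and 1532 scaled reads in the SRSF3 knockdown, against 1758 and 1481 in GFP cells, and its part in the level of Tnpo1 was not tested.

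Tnpo2 had 5269 and 6484 scaled reads in the cytoplasm of SRSF3 knockdown cells, against 4024 and 4689 in GFP cells. Its log2 fold change was 0.42 ± 0.17 (SE), with an adjusted p of 0.29 by limma and 0.023 with the letter as a block. Without SRSF3 replicate B it was 0.26, with an adjusted p of 0.46 by limma. The call in the cytoplasm thus rests on the block, unlike the one in the whole cell. Xpot in the same cytoplasm had 3800 and 3147 against 4292 and 3758 in GFP cells, and did not pass in either fit.

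Both exportins had low cytoplasmic values in other knockdowns. Xpot had 2688 and 2211 scaled reads in the cytoplasm of SRSF1 knockdown cells, against 4292 and 3758 in GFP cells. These were the lowest A and the lowest B of the gene. The log2 fold change was −0.72 ± 0.22 (SE), with an adjusted p of 0.29 by limma and 0.0033 with the letter as a block. Xpot had 7248 and 7882 in the whole cell of that knockdown, against 8222 and 7741 in GFP cells. Xpo1 had 1455 and 1065 scaled reads in the cytoplasm of SRSF2 knockdown cells, against 2564 and 2260 in GFP cells. Its log2 fold change was −0.95 ± 0.44 (SE), with an adjusted p of 0.71 by limma and 0.036 with the letter as a block. The fold changes of Xpo1 were below 0 in 6 of 7 knockdowns, and 1 library, SRSF1 B at 1008, was the lowest of the gene. All of them use the same GFP libraries, so that count is not a set of separate observations.

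Kpnb1, Tnpo3, Ipo7 and Ran passed in the cytoplasm in no knockdown in either fit. Kpnb1 had log2 fold changes between −0.17 and 0.20 (SE 0.27), Tnpo3 between −0.22 and 0.29 (SE 0.27) and Ran between −0.09 and 0.15 (SE 0.13). Ipo7 spanned −0.61 to 0.68 (SE 0.80), and in the SRSF3 knockdown its libraries stood at 1411 and 393 against 655 and 327 in GFP cells. A difference of that size was not detectable with this spread. The median log2 fold change of the 8 genes was between −0.25 for SRSF4 and 0.28 for SRSF6, beside medians over all genes between −0.03 and 0.01.

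**Figure D3:**
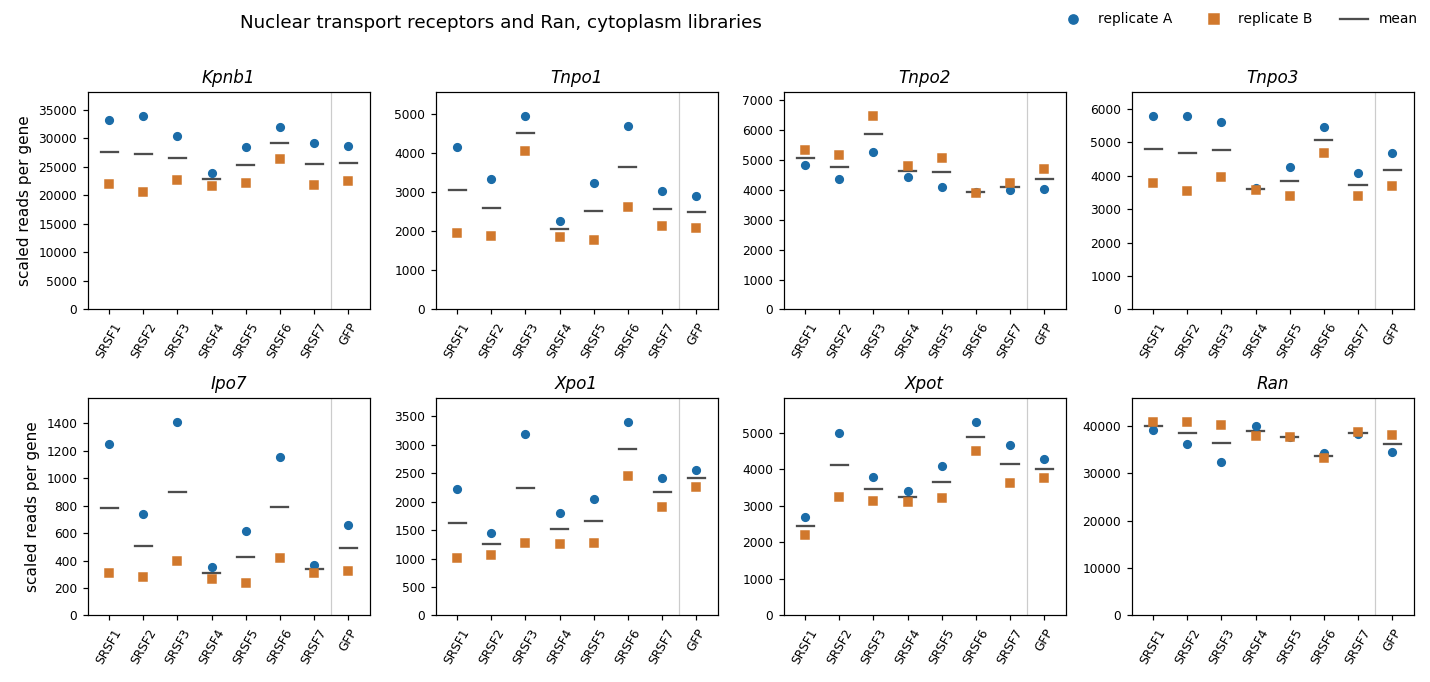
Scaled reads per gene in the cytoplasm (y axes from 0, a scale for each gene) for the 7 knockdowns and GFP, with circles for A, squares for B and a line for the mean. Tnpo1 is highest in the SRSF3 knockdown at 4967 and 4059, and A lies above B in every group for 6 of the 8 genes.

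The study asked how SR proteins take part in mRNA export, and set cytoplasmic against whole-cell levels to look for it. It worked per transcript with the tool Cuffdiff and took net cytoplasmic decreases as candidates. RT-qPCR of fractions and maps of RNA binding were added to them. Here a related comparison was made per gene and in both directions, as an interaction over all 32 libraries. Unit and test differ from those of the study, so the result is not a repeat of its search. By limma 0 of the 8 genes passed in any knockdown, without and with the letter as a block, and edgeR and DESeq2 also gave 0. Of all genes 0.00521% were called for SRSF3 and 0% for the other knockdowns. At an unadjusted p below 0.05 there was 1 of 8 genes for SRSF1 and 1 for SRSF3. Xpot changed by −0.64 ± 0.24 (SE) on the log2 scale for SRSF1 and Tnpo1 by 1.00 ± 0.46 (SE) for SRSF3, each with an adjusted p of 1.00 by limma. For Tnpo1 the interaction had an adjusted p of 0.41 by limma with the letter as a block. It was 0.74 by limma with a block of group and letter shared by the fractions.

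**Figure D4:**
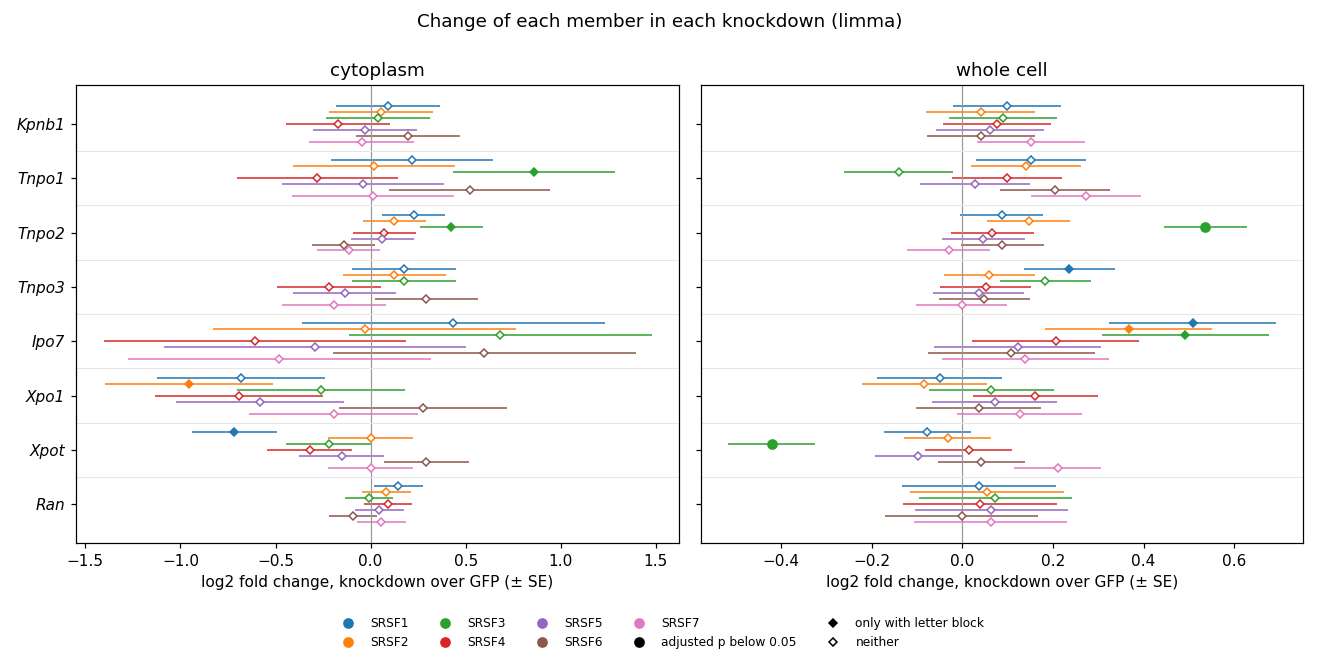
Log2 fold change of each gene in each knockdown over GFP (x axes, which differ in range) with bars of ± 1 SE, cytoplasm on the left and whole cell on the right. Filled circles passed by limma, filled diamonds only with the letter as a block, and open diamonds in neither. Only Tnpo2 (0.54) and Xpot (−0.42) of the SRSF3 knockdown in the whole cell are filled circles.

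Exon bins were tested for a change in use relative to the gene's other bins, by limma's diffSplice within each comparison, at an adjusted p below 0.1. Of the 233 bins, 198 to 205 entered per cytoplasmic comparison and 213 to 218 per whole-cell one. A single one passed in each fraction, both in the SRSF3 knockdown, where 0.48% of all cytoplasmic bins and 0.384% of all whole-cell bins were called. The shares of all bins called in the cytoplasm were 0.175% for SRSF1, 0.0139% for SRSF2, 0.00207% for SRSF4, 0.0027% for SRSF5, 0.00666% for SRSF6 and 0.0484% for SRSF7. For whole-cell bins they were 0.314% for SRSF1, 0.107% for SRSF2, 0% for SRSF4 and SRSF5, 0.00328% for SRSF6 and 0.072% for SRSF7. Over the 12 comparisons in which limma called 0 member bins, between 0 and 6 had an unadjusted p below 0.05. edgeR's diffSpliceDGE called 0 member bins in all comparisons.

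In the cytoplasm of SRSF3 knockdown cells the last exon of Tnpo1 was used less. This exon, which holds the 3′ UTR, spans chr13:98839019-98844620 (mm10, minus strand, 5602 bases) and is a single bin. It took 33.1 and 24.9% of the gene's scaled reads over bins in SRSF3 knockdown cells, against 50.4 and 45.2% in GFP cells. The bin held 2203 and 1421 scaled reads in SRSF3 knockdown cells, against 1903 and 1324 in GFP cells, while the other bins together held 4453 and 4284, against 1873 and 1608. The higher cytoplasmic level of Tnpo1 thus lay mainly outside its last exon. The change in use was −1.20 ± 0.16 (SE) on the log2 scale, with an adjusted p of 2.0e-06 by limma and 6.8e-09 with the letter as a block. By edgeR it was −0.71 with an adjusted p of 1.00. In the whole cell the share was 38.6 and 37.9% in SRSF3 knockdown cells, against 45.3 and 50.9% in GFP cells, and limma did not call it.

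The last exon took a smaller share in most of these genes in that fraction. Both SRSF3 cytoplasmic libraries lay below both GFP libraries for 7 of the 8 genes, all but Ipo7, and so did 50.4% of the 10450 genes that averaged 100 or more scaled reads. The median difference was −6.09 percentage points over the 8 genes and −1.83 over all. The SRSF1 knockdown had the same pattern in the cytoplasm for 7 of 8 genes and 43.6% of all genes. It was also seen for 5 of 8 genes with SRSF5 knockdown (31% of all genes) and 4 with SRSF2 knockdown (28%). With SRSF4 and SRSF6 knockdown it was seen for 2 of 8 genes each (20% and 18% of all genes). All of these comparisons share the same GFP libraries, so they are not separate observations. In the SRSF7 knockdown the share was higher in both libraries for 3 of 8 genes and 35.4% of all. Whole-cell shares of SRSF3 knockdown cells were lower for 3 of 8 genes and 20.2% of all. A lower last-exon share was therefore common to many genes of these cytoplasmic libraries, and this count over all genes was added after the shares of the 8 genes had been seen.

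Kpnb1 followed the same direction. Its last exon (chr11:97159714-97162681, mm10, minus strand) took 36.5 and 38.1% of the gene's scaled reads over bins in the cytoplasm of SRSF3 knockdown cells, 47.4 and 52.2% with SRSF7 knockdown, and 44.0 and 46.9% in GFP cells. Xpot (last exon chr10:121587380-121590220, mm10, minus strand) was at 23.2 and 23.3% in SRSF3 knockdown cells, against 29.5 and 28.6% in GFP cells. Tnpo2 (chr8:85055551-85057583, mm10, plus strand) was at 32 and 29% in SRSF3 knockdown cells, against 37.7 and 36.1% in GFP cells. Its share was as low with SRSF1 knockdown (29 and 32%) and with SRSF2 knockdown (29 and 32%). Over the 14 knockdown libraries of the cytoplasm it ran from 29 to 38%, with a median of 32%. The lower share of Tnpo2 was thus not particular to SRSF3. With the letter as a block, 11 member bins were called in the cytoplasm of the SRSF3 knockdown (1.75% of all bins), 2 for SRSF1 (0.908%) and 2 for SRSF7 (0.315%). The last-exon bins among them were lower in use in Kpnb1, Tnpo1, Tnpo2, Tnpo3 and Xpot for SRSF3 and in Tnpo2 and Tnpo3 for SRSF1, and higher in Kpnb1 and Xpo1 for SRSF7. The other 6 bins of the SRSF3 knockdown were all higher in use. They were the first bin of Kpnb1 in the direction of transcription (chr11:97187546-97187881, 0.48 on the log2 scale), an internal bin of Tnpo1 (chr13:98884515-98884664, 0.60) and 4 bins near the 5′ end of Tnpo3 (between 0.52 and 1.03). A gene's bins are measured relative to each other, so a lower last exon and higher other bins are not separate measurements. The fractions themselves also differed: in GFP cells the last exon of Kpnb1 took 44.0 and 46.9% in the cytoplasm against 29.9 and 33.1% in the whole cell, and that of Xpo1 (chr11:23295961-23298249, mm10, plus strand) 30.4 and 34.0% against 9.50 and 11.1%.

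The called bin of the whole cell lies in Tnpo3, at chr6:29583343-29586037 (mm10, minus strand, 2695 bases). It held few reads, 10 and 8 in SRSF3 knockdown cells against 2 and 0 in GFP cells. Its use changed by 2.32 ± 0.61 (SE) on the log2 scale, with an adjusted p of 0.080 by limma and 0.016 with the letter as a block. The value was 0.30 by edgeR, and without GFP replicate B the adjusted p was 1.00 by limma. With the block another Tnpo3 bin of this knockdown passed in the whole cell, chr6:29564877-29565170, at 16 and 8 reads against 3 and 3 in GFP cells (0.49% of all bins called). The last exon of Tnpo3 (chr6:29540827-29541866) took between 16.3 and 20.2% of its scaled reads over bins in the 14 whole-cell knockdown libraries, against 17.2 and 19.9% in GFP cells. Among the other genes, the last exon of Ipo7 (chr7:110055017-110055114, mm10, plus strand) is 98 bases long and that of Ran (chr5:129022774-129024323, mm10, plus strand) 1550 bases. Ran may share reads with copies of its sequence elsewhere in the genome, and its values are uncertain to that extent.

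The deposited isoform estimates give the share of the long tandem 3′ UTR form, with both replicates pooled, so the intervals cover the estimate in the pool and no replicate error. The long form of Kpnb1, which ends with AATAAA in the window shown above, took 61% (95% interval 60 to 62) in the cytoplasm of SRSF3 knockdown cells, 87% (86 to 88) with SRSF7 knockdown, 83% with SRSF6 knockdown and 78% (77 to 79) in GFP cells. Its whole-cell share was 51% (50 to 52) with SRSF3 knockdown, 71% with SRSF6 knockdown, 68% with SRSF7 knockdown and 64% (63 to 65) in GFP cells. SRSF3 knockdown had the smallest share of the 8 groups in both fractions. A difference from GFP as large in size as the one for SRSF3 was seen in 9.46% of 1173 events in the cytoplasm and 10.9% of 1166 in the whole cell. The long form took a larger share in the cytoplasm than in the whole cell in every group.

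Ran ran the other way between fractions. Its long form, which holds no AATAAA in its window, took 25% (24 to 26) in the cytoplasm with SRSF7 knockdown, 23% with SRSF6 knockdown, 22% with SRSF2 knockdown, 15% with SRSF3 knockdown and 17% (16 to 17) in GFP cells. Its whole-cell share was 45% (44 to 46) with SRSF7 knockdown, 37% with SRSF2 knockdown, 23% (22 to 24) with SRSF3 knockdown and 30% (29 to 31) in GFP cells. The whole-cell difference of 15 points for SRSF7 was matched or exceeded by 4.17% of 1174 events, and the cytoplasmic one of 8 points by 17.1% of 1175. For SRSF3 both genes had less of the long form than GFP cells, and for SRSF7 both had more, in each fraction. Both genes also had more with SRSF6 knockdown and, by 1 to 4 points, with SRSF1 knockdown. A larger share was thus not particular to SRSF7. Kpnb1 with SRSF7 knockdown differed by 4 points in whole-cell libraries, a size matched or exceeded by 32% of events. Ran with SRSF3 knockdown differed by −2 points in cytoplasmic libraries (62% of events) and −7 in whole-cell ones (29%). The scaled reads of Ran did not pass in any of these comparisons.

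**Figure D5:**
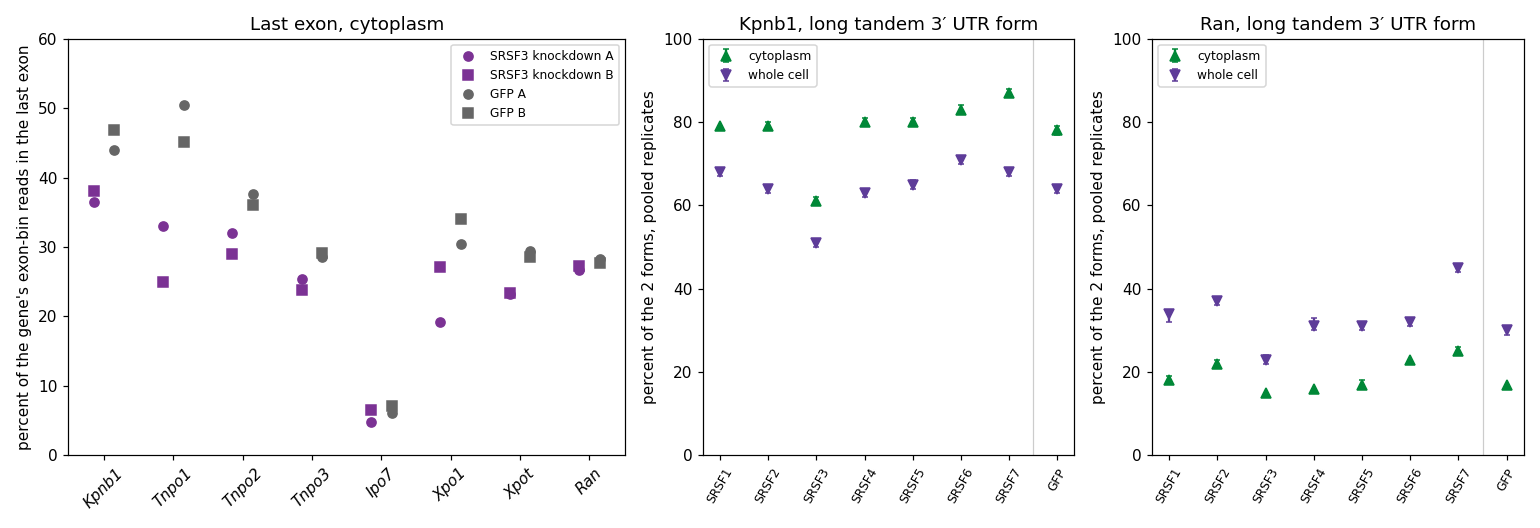
Left, percent of each gene's exon-bin reads in its last exon in the cytoplasm of SRSF3 knockdown and GFP cells, with circles for A and squares for B. Middle and right, percent of the long tandem 3′ UTR form of Kpnb1 and Ran per group, pooled over replicates, with bars for the 95% interval (upward triangles cytoplasm, downward whole cell). Tnpo1 falls to 33.1 and 24.9% with SRSF3 knockdown, Kpnb1 is lowest with SRSF3 knockdown and Ran is highest with SRSF7 knockdown.

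A wider list of 57 transport genes (other importins and exportins, importin alpha, the Ran cycle and nucleoporins), of which 56 were tested, had calls in the whole cell of SRSF3 knockdown cells alone, 2 higher and 2 lower of 56, where 11.4% of all genes were called. Gle1, an mRNA export factor at the pore, had 2530 and 2001 scaled reads in SRSF3 knockdown cells, against 1601 and 1603 in GFP cells (log2 fold change 0.48, adjusted p of 0.023 by limma). Rae1, which binds nucleoporins in mRNA export, had 5022 and 4109, against 3243 and 3556 (0.41, 0.025). Ranbp17, a relative of the exportins, had 1150 and 1386, against 1958 and 1718 (−0.55, 0.022). Seh1l, a scaffold nucleoporin, had 6634 and 6966, against 8699 and 9099 (−0.40, 0.019). With the letter as a block the whole-cell calls numbered 12 higher and 5 lower of 56 in the SRSF3 knockdown (33.2% of all genes called), 9 higher and 1 lower in the SRSF1 knockdown (10.9%), and 4 higher and 1 lower in the SRSF2 knockdown (6.01%). The cytoplasmic ones numbered 9 higher and 2 lower for SRSF3 (13.9% of all genes called), 6 higher and 1 lower for SRSF1 (5.91%) and 0 higher and 2 lower for SRSF2 (1.84%). No test set the list against all genes.

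The genes most like Tnpo3 and Ran over the 16 whole-cell libraries were sought among 12570 others by Pearson's r of log2 values, as a description, since the libraries share letters and controls. For Tnpo3 they were Trmt44 (0.956), Rlf (0.953), Mrps27 (0.930), Rabl3 (0.929) and Mrpl39 (0.924). For Ran they were Gm10131 (0.972), Erh (0.967), Psma7 (0.964), Rps27l (0.963) and Eif5a (0.954).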

How the data were processed

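Polyadenylated RNA of P19 cells was sequenced from 16 groups of 2 libraries. Tools named in the submitters' processing notes are Cufflinks 2.1.1, Bowtie2 2.1.0, TopHat2 (versions 2.0.10 and 2.0.9), cutadapt and CASAVA 1.8.2. The gene and exon-bin tables deposited by the authors hold a signal, estimated reads scaled to a common depth, and not raw counts. Within the gene tables, 97.85 to 98.65% of low values (up to 20 steps) were whole reads to within 0.1 once divided by the step of the library. The authors' FPKM values pool replicates, and so do the isoform fractions deposited by the authors from MISO, given here as percent. The authors' fold changes, p-values and Bayes factors were not used.

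Genes were tested with limma 3.58.1 (TMM factors, filterByExpr, trend, two-sided) over all 16 libraries of a fraction, with 18539 genes in the whole cell and 17565 in the cytoplasm. A table value of 0 in a library whose bins hold at least 100 reads was taken as a failed estimate, and 6 genes per table were left out. Raw counts had been planned for, so edgeR 4.0.16 and DESeq2 1.42.0 ran on the recovered reads as alternatives. Exon bins (mean of at least 5) were tested with diffSplice per comparison. Coordinates are mm10 for bins and mm9 for isoform events, and none was converted. A last exon is the last run of touching bins. The tests were tested on simulated data without a difference between letters, which cannot show how they perform on these libraries.

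Groups come from the labels. The letters pair the libraries: over 28 pairs of groups, same-lettered deviations from the group means correlated at 0.24 to 0.81 (Spearman) in the whole cell and 0.45 to 0.83 in the cytoplasm, a pairing that rests on the labels' letters and on these data. All 8 genes were named in every comparison. In addition the list genes called with the largest change, at most 5 per comparison, every called bin of the 8 genes and the 5 nearest genes of Tnpo3 and Ran were named. The genes, lists and tests were chosen with earlier results of these data known. Alternatives were other scalings, pseudocounts, filters, tools, the letter block and leaving out each library. Intervals and depth cover counting error only.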

Additional observations from a re-analysis of the deposited data

How the results depend on the processing

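Under the alternatives no called change reversed its sign. In the whole cell 2 changes of the 8 genes were called; this became 0 with only the libraries of the comparison and 6 with the letter as a replicate block, and ranged from 0 to 3 when each library was left out (1 without either GFP library, 0 without SRSF3 replicate A). In the cytoplasm 0 were called, 4 with the letter block and 0 to 0 when each library was left out. Cytoplasm relative to whole cell stayed at 0 under every alternative, including a replicate block shared by the fractions. Of exon bins, 1 was called in the whole cell, 0 with a mean of at least 20, 0 by edgeR, 2 with the letter block and 0 to 1 with a library left out. In the cytoplasm 1 was called, 0 by edgeR, 15 with the letter block and 1 to 2 with a library left out. Tnpo2 in the SRSF3 knockdown was called in 22 of 24 alternatives (log2 fold change 0.43 to 0.64) and Xpot in 20 of 24 (−0.53 to −0.32). Of the 24 fits, 16 left out a library, in most cases one of another knockdown. Such fits keep the SRSF3 and GFP values as they are, so these counts are a weak check. Neither gene was called with only the libraries of the comparison. Over all fold changes of the 8 genes, 4718 alternative values kept side and direction, 251 moved in sign without a call, 9 gained a call and 6 lost it. The cause was not tested. With 2 libraries per group, the wide standard errors of the low cytoplasmic genes limit what can be detected.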
